A study of Rattus norvegicus with 10 samples.

Results

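Scgb1a1, Cyp2f4, Agr2 and Bpifb1 are genes of the secretory cells that line the conducting airways, and they were followed in whole lung of Cmg2-KO and wild-type (WT) rats. They were taken by name from the authors' deposited table, which held 1319 genes with an unadjusted p-value under 0.05 for this same contrast, the highest being 0.049982. They are the only genes of a 30-gene secretory airway list with a row there. This is 13.3% of the list, beside 6.63% of the 19894 genes in the authors' adjustment for multiple testing. The 4 genes were therefore chosen by the difference between the genotypes, and their levels in the genotypes are given as a description without a test. The other 26 genes of the list, among them Scgb3a1, Scgb3a2, Muc5b and Bpifa1, were not analysed here.

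RNA sequencing libraries were made from the lungs of Cmg2-KO rats (5 libraries) and WT rats (5 libraries), all of the outbred Sprague Dawley strain and 8 weeks old. Cmg2, also named Antxr2, encodes a transmembrane receptor that binds extracellular matrix proteins and is used by anthrax toxin to enter cells. GEO's design text gives a higher replicate number than these 5, and any further library was not analysed here. The labels do not say how Cmg2 was disrupted or whether each library came from its own animal, so any spread between libraries may be partly technical. Antxr2 itself was not analysed here, and the genotypes therefore rest on the labels. Values are scaled counts, the authors' read counts divided by 1 size factor per library, and they summed over the table to between 1386578 and 1531531 per library. How many reads each library held in total is unknown.

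The conducting airways carry secretory cells (club cells in the small airways, goblet cells and gland cells further up) beside ciliated cells, and the gas-exchanging alveoli have a separate epithelium. Club cells secrete the small protein encoded by Scgb1a1 and hold much of the lung's cytochrome P450, while mucus-making cells depend on an enlarged endoplasmic reticulum to fold mucins. Scgb1a1 encodes secretoglobin 1A1, also called club cell protein or uteroglobin. Cyp2f4 encodes the rat P450 related to mouse Cyp2f2, which oxidises naphthalene in club cells. Agr2 encodes a protein disulphide isomerase of the endoplasmic reticulum that is needed for mucin production in mouse intestine. Bpifb1 encodes a secreted protein of the BPI fold family found in airway mucus. Because the samples were whole lung, fewer cells of a type and less RNA per cell cannot be told apart in any of the values that follow.

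The promoter of each gene is printed here because deviations between libraries are compared between these genes further on. The sequences are those of RefSeq for build GRCr8, from 250 bases before to 50 bases after the annotated start of the gene, on the strand of the gene, and all 4 genes were matched by symbol. Capitals mark matches, on either strand, to 6 short motifs. TGTTTAC is a motif of the forkhead factors FOXA and TATTTAC a second form of it. CTCAAG is a motif of NKX2-1, TTGCNNAA of C/EBP factors and CACGTG of E-box factors, while TATAAA is the TATA box. No matches overlap.
Scgb1a1: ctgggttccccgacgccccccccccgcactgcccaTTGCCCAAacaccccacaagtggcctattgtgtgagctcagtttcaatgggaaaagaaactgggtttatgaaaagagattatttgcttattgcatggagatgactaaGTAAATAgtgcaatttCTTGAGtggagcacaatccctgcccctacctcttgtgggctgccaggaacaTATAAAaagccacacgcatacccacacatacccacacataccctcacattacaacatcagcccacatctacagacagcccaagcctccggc
Cyp2f4: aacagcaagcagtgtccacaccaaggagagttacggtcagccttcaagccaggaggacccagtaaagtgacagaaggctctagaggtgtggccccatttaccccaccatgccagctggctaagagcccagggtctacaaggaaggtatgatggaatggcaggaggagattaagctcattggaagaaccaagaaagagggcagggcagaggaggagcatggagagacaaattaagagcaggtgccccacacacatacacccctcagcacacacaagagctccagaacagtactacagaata
Agr2: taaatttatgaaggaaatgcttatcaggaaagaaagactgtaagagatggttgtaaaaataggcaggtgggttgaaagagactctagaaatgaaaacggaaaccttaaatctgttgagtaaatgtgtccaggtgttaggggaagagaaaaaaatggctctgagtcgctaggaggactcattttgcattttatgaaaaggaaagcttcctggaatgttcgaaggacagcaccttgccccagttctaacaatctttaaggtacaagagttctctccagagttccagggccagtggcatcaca
Bpifb1: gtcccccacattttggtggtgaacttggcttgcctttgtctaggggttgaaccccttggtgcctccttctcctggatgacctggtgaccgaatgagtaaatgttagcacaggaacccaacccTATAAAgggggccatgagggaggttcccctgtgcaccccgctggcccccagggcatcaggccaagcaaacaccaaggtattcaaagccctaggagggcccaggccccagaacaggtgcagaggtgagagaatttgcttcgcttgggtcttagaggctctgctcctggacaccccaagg
The Scgb1a1 window (chr1:215409637-215409936, minus strand) held a match to the C/EBP motif (-215 to -208), the second FOXA form (-108 to -102, on the other strand), the NKX2-1 motif (-92 to -87, on the other strand) and the TATA box (-41 to -36), counted in bases from the annotated start. The Bpifb1 window (chr3:163132901-163133200, plus strand) held a match to the TATA letters alone (-128 to -123). The windows of Cyp2f4 (chr1:91543518-91543817, plus strand) and Agr2 (chr6:58435658-58435957, plus strand) held none of these letters. Of all 33469 RefSeq promoter windows of the same length, 3.78% held the first FOXA form, 3.51% the second, 15.8% the NKX2-1 motif, 10.6% the C/EBP motif, 6.42% the E-box and 14.2% the TATA letters. None of the 6 motifs was in all 4 windows, and a match describes letters only, not binding.

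Scgb1a1 (chromosome 1, 225279676 to 225283326 on the minus strand, as the authors' table gives it without a build) had the highest scaled count of the 1319 genes, not divided by length, in all 10 libraries. It stood at 119645, 84205, 97126, 175952 and 107713 scaled counts in Cmg2-KO 1 to 5, against 195238, 143906, 149530, 145849 and 152709 in WT 1 to 5. In Cmg2-KO, 4 of 5 libraries were below every WT library, and Cmg2-KO 4 lay above all WT libraries but WT 1, so the genotypes overlapped. The mean was 116928 ± 35493 in Cmg2-KO and 157447 ± 21396 in WT (SD, n = 5 each), and the log2 fold change was -0.47 ± 0.17 (SE). Unless said to be the authors', a log2 fold change here sets Cmg2-KO over WT on log2(scaled count + 1), fitted with limma to the whole table. In that fit each SE is drawn toward the spread of the other genes of the table. Those genes were selected for a p-value under 0.05, so the SE may be too small.

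Cyp2f4 (chromosome 1, 83933942 to 83947821, plus strand) had the largest difference of the 4 on that scale. Its scaled counts were 182, 120, 260, 859 and 209 in Cmg2-KO 1 to 5, against 1223, 336, 767, 874 and 590.0 in WT 1 to 5. As for Scgb1a1, 4 Cmg2-KO libraries were below every WT library and Cmg2-KO 4 was inside the WT range. The mean was 326 ± 302 in Cmg2-KO and 758 ± 330.1 in WT (SD, n = 5 each), with a log2 fold change of -1.46 ± 0.50 (SE). Without Cmg2-KO 4 the log2 fold change was -1.90 ± 0.35 (SE). Since that library was the highest of Cmg2-KO, leaving it out could only make the difference larger and the spread smaller.

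Agr2 (chromosome 6, 55465782 to 55487714, plus strand) stood at 61.7, 57.1, 96.1, 123 and 71.7 scaled counts in Cmg2-KO 1 to 5, against 229, 86.1, 153, 126 and 123 in WT 1 to 5. In Cmg2-KO, 3 libraries were below every WT library, all 5 were below the WT median of 126, and the groups overlapped through Cmg2-KO 3, Cmg2-KO 4 and WT 2. The mean was 81.9 ± 27.4 in Cmg2-KO and 143 ± 53.2 in WT (SD, n = 5 each), and the log2 fold change was -0.79 ± 0.28 (SE).

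Bpifb1 (chromosome 3, 149668102 to 149702399, plus strand) had the lowest level per length of the 4 and the widest relative spread in WT lung. It had 19.99, 13.2, 24.0, 31.2 and 27.0 scaled counts in Cmg2-KO 1 to 5, against 162, 11.4, 41.1, 61.7 and 17.9 in WT 1 to 5. WT 2 was below all Cmg2-KO libraries and WT 5 within their range, while WT 1, WT 3 and WT 4 were above all of them. The mean was 23.1 ± 6.89 in Cmg2-KO and 58.7 ± 60.8 in WT (SD, n = 5 each), so that the SD among WT libraries was larger than their mean. These values rested on 15 to 33 whole reads in Cmg2-KO libraries and 11 to 159 in the 4 WT libraries used for reads (WT 4 was left out). The authors' deposited table gives Bpifb1 a log2 fold change of -1.35, whereas the mean of the log2 values gave -0.78 ± 0.61 (SE), and without WT 1 it was -0.27 ± 0.48 (SE).

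**Figure D1:**
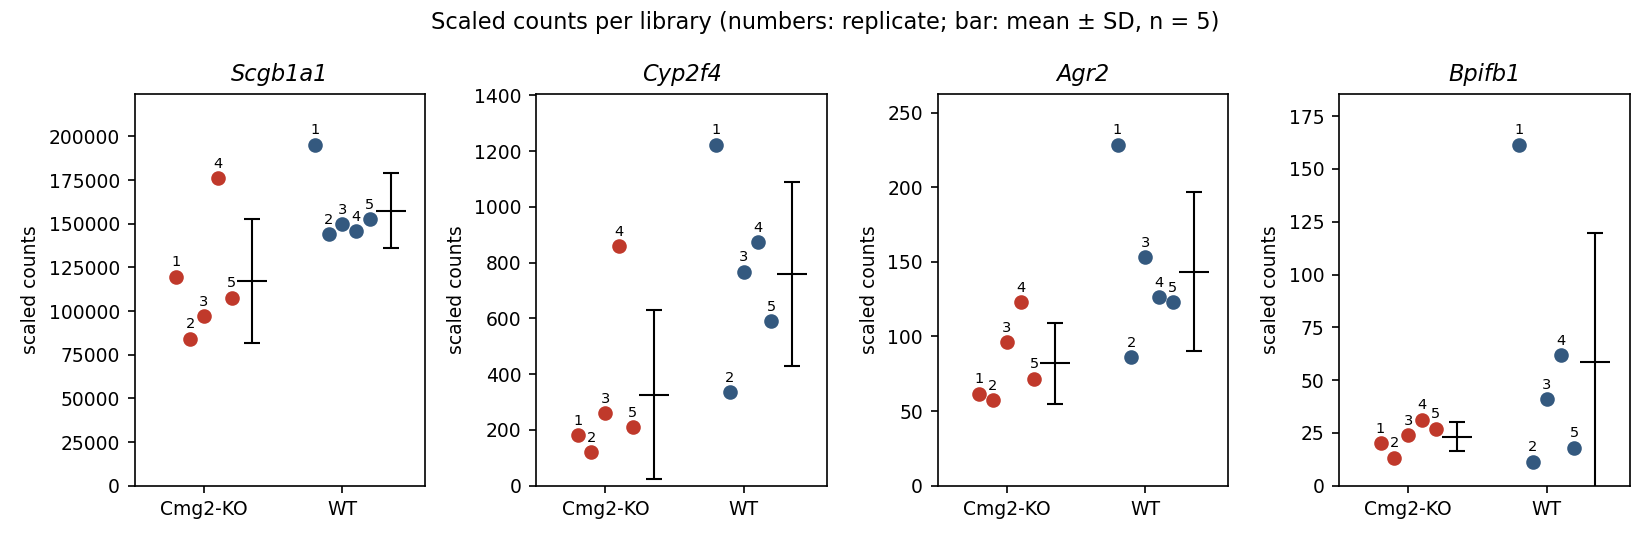
Scaled counts (y axis, from 0) of the 4 genes in each library, Cmg2-KO left and WT right. Numbers are replicate numbers and bars show the mean ± SD of 5 libraries, the lower bar for Bpifb1 in WT being cut at 0. Cmg2-KO 4 and WT 1 are the highest libraries of their genotype in every panel, at 175952 and 195238 for Scgb1a1.

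The authors' deposited table gave unadjusted p-values of 0.0156 for Scgb1a1, 0.0341 for Cyp2f4, 0.00478 for Agr2 and 0.0225 for Bpifb1, which are the values that placed these genes in the table. Genes with a p-value of 0.05 or more were not analysed here. The table held 6.63% of the 19894 genes in the authors' adjustment, 3.43% lower and 3.2% higher in Cmg2-KO. After adjustment the values of the 4 in the authors' deposited table lay between 0.324 and 0.666, so 0 of 4 passed 0.05, as 5.46% of the listed genes did (2.35% lower and 3.11% higher in Cmg2-KO). By limma, 0.229% of the 1308 genes fitted passed after adjustment, with 0.153% lower. All 4 were lower in Cmg2-KO, as were 51.8% of the listed genes. The median log2 fold change was -0.78 for the 4 genes and -0.15 for the 1308 genes fitted. None of the 4 had all Cmg2-KO libraries below all WT libraries, a pattern found in 7.05% of the listed genes. Scgb1a1 and Cyp2f4 had at least 4 of 5 Cmg2-KO libraries below every WT library, as did 22.4% of the listed genes. Because the genes were chosen on this contrast, nothing is read from these shares.

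Levels can be set side by side between genes only per unit of length. Per kilobase of the gene length in the authors' table, the mean scaled count of Scgb1a1 was 206953 in Cmg2-KO and 278667 in WT. Cyp2f4 had 171 per kilobase in Cmg2-KO and 398 in WT, Agr2 had 52.5 in Cmg2-KO and 92.0 in WT, and Bpifb1 13.6 in Cmg2-KO and 34.6 in WT. The order Scgb1a1, Cyp2f4, Agr2, Bpifb1 held in each of the 10 libraries. The spread between libraries of a genotype did not follow that order: the highest Cmg2-KO library exceeded the lowest 2.09-fold for Scgb1a1, 7.14-fold for Cyp2f4, 2.15-fold for Agr2 and 2.37-fold for Bpifb1. The same ratio among WT libraries was 1.36 for Scgb1a1, 3.64 for Cyp2f4, 2.65 for Agr2 and 14.2 for Bpifb1.

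The libraries at either end of each genotype were the same for all 4 genes. Cmg2-KO 4 was the highest and Cmg2-KO 2 the lowest Cmg2-KO library, and WT 1 was the highest and WT 2 the lowest WT library, for each of the 4. The p-values that chose the genes depend on each gene's own means and spread, which permuting its values within a genotype leaves as they are, and not on how 2 genes deviate together. That joint deviation was tested. The log2 values were centred on their genotype mean, and the 6 pairs of genes were correlated over the 10 libraries, with exact two-sided permutation within genotype and Benjamini-Hochberg adjustment over the 6 pairs.

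Cyp2f4, Agr2 and Bpifb1 deviated together by Pearson's r and by Spearman's rho. Cyp2f4 and Agr2 had r = 0.90 (p = 0.000278, adjusted p = 0.00167) and rho = 0.92 (p = 0.000139, adjusted p = 0.000833), and r = 0.92 (p = 0.0139) without Cmg2-KO 4 and Cmg2-KO 2, the libraries farthest from the median of Cyp2f4. Cyp2f4 and Bpifb1 had r = 0.70 (p = 0.00257, adjusted p = 0.00771) and rho = 0.79 (p = 0.00194, adjusted p = 0.00583), and r = 0.93 (p = 0.00833) without the same libraries. Agr2 and Bpifb1 had r = 0.81 (p = 0.00451, adjusted p = 0.00903) and rho = 0.83 (p = 0.00653, adjusted p = 0.0131), and r = 0.69 (p = 0.0712) without WT 1 and Cmg2-KO 4. This last relation therefore no longer passed without those libraries.

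The relations of Scgb1a1 to the other three came mainly from its extreme libraries. Its r was 0.85 with Cyp2f4 (p = 0.00979, adjusted p = 0.0147), 0.69 with Agr2 (p = 0.0231, adjusted p = 0.0231) and 0.51 with Bpifb1 (p = 0.0158, adjusted p = 0.019, exact permutation). Spearman's rho was 0.61 (p = 0.0842, adjusted p = 0.126), 0.50 (p = 0.159, adjusted p = 0.191) and 0.39 (p = 0.210, adjusted p = 0.210) in the same order, and none of these passed. Without Cmg2-KO 4 and WT 1, r was 0.34 with Cyp2f4 (p = 0.439), 0.11 with Agr2 (p = 0.8003) and 0.24 with Bpifb1 (p = 0.372), by the same exact permutation. The 3 relations with Scgb1a1 thus depended on those 2 libraries, though fewer libraries also give the test less power. Each also missed the threshold without Cmg2-KO 2 alone. Then r was 0.80 with Cyp2f4 (adjusted p = 0.0596), 0.63 with Agr2 (adjusted p = 0.0677) and 0.45 with Bpifb1 (adjusted p = 0.0596, exact permutation).

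**Figure D2:**
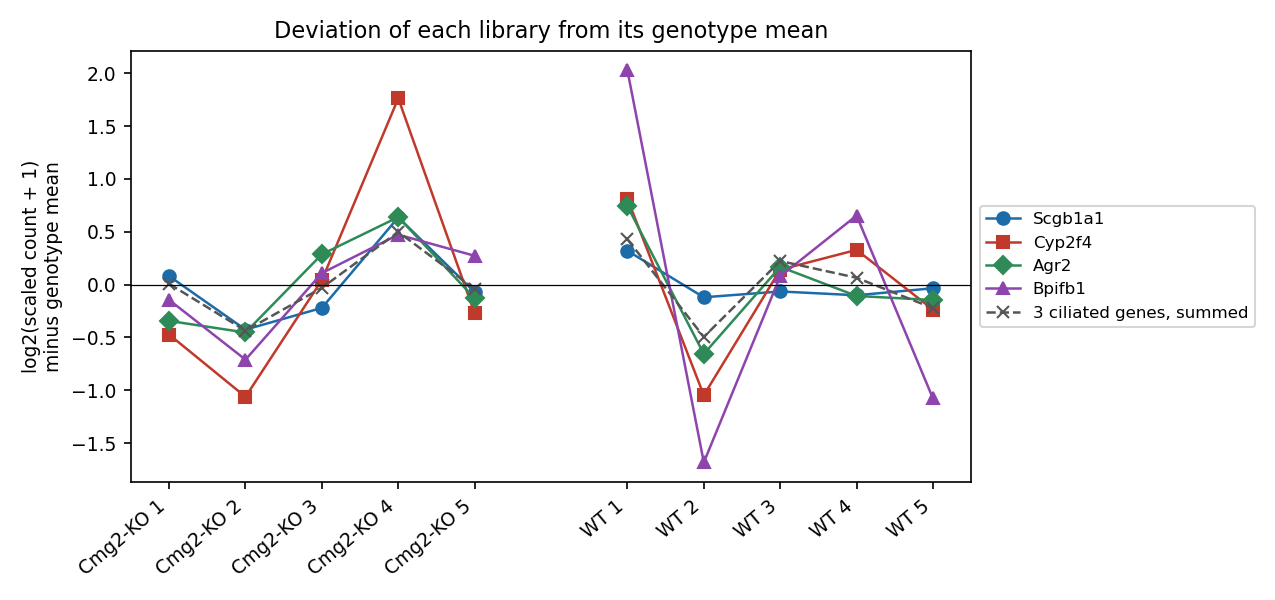
Deviation of log2(scaled count + 1) from the genotype mean (y axis) in each library (x axis, Cmg2-KO left), for the 4 genes and for the sum of 3 ciliated cell genes (dashed). All 5 lines peak in Cmg2-KO 4 and WT 1 and are lowest in Cmg2-KO 2 and WT 2, and Bpifb1 has the widest swing among WT libraries.

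Ciliated cells share the airway lining with secretory cells, and 3 of 36 genes on a ciliated cell list had a row in the table. This is 8.33% of the list, beside the 6.63% of all genes in the authors' adjustment that had a row, so the 3 genes are not read as speaking for ciliated cells in general. These were Dnai2 and Dnah7, which encode an intermediate and a heavy chain of axonemal dynein, and Cfap52, a gene of the ciliary axoneme. All 3 were lower in Cmg2-KO, with log2 fold changes of -0.53 ± 0.24, -0.54 ± 0.27 and -0.37 ± 0.16 (SE), and none passed the adjusted threshold in the authors' deposited table. Their summed level was 357.6 to 684 scaled counts in Cmg2-KO and 481 to 914 in WT, with Cmg2-KO 4 and WT 1 again the highest libraries of their genotypes. Within genotypes the ciliated sum was correlated with each secretory gene, at r = 0.80 for Scgb1a1 (p = 0.00535, adjusted p = 0.0214), 0.92 for Cyp2f4 (p = 0.000764, adjusted p = 0.00833), 0.90 for Agr2 (p = 0.00104, adjusted p = 0.00833) and 0.84 for Bpifb1 (p = 0.00236, adjusted p = 0.0126). These are exact permutation p-values, adjusted over 16 relations of the 4 genes with 4 marker sums. Spearman's rho was 0.71 (p = 0.0264, adjusted p = 0.0704), 0.89 (p = 0.00167, adjusted p = 0.0244), 0.85 (p = 0.00306, adjusted p = 0.0244) and 0.79 (p = 0.0208, adjusted p = 0.0664) for Scgb1a1, Cyp2f4, Agr2 and Bpifb1. Without Cmg2-KO 4 and WT 2, the libraries farthest from the median of the ciliated sum, by exact permutation r was 0.75 (p = 0.0833), 0.87 (p = 0.0226), 0.76 (p = 0.0538) and 0.85 (p = 0.0312) in that order, so that the relations of Scgb1a1 and Agr2 no longer passed.

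Relative to the ciliated sum of the same library, Scgb1a1 stood at 234 ± 19.7 times that sum in Cmg2-KO and 234 ± 45.6 times in WT (SD, n = 5 each), with ranges of 205 to 257 in Cmg2-KO and 189 to 299 in WT. Cyp2f4 had 592 ± 380 scaled counts per 1000 of the ciliated sum in Cmg2-KO and 1050 ± 249 in WT. The log2 difference of the ratio was 0.02 for Scgb1a1, -0.98 for Cyp2f4, -0.31 for Agr2 and -0.31 for Bpifb1, and relative to the smooth muscle sum it was -0.01, -1.01, -0.34 and -0.34 in the same order. A common divisor moves all 4 differences by about the same amount, so the gaps between the genes are those of the undivided levels. The ciliated and smooth muscle genes were themselves selected for the same contrast, and the part of airway content in the lower levels was not tested.

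Markers of other lung compartments were also among the listed genes, and none of the smooth muscle, alveolar type 2 or mesothelial genes passed 0.05 after the authors' adjustment. In that order, 64.7%, 21.4% and 70.0% of the lists had a row. Of all genes in the authors' adjustment 6.63% had a row, 3.43% lower and 3.2% higher in Cmg2-KO. Smooth muscle genes, which mark the walls of airways and vessels, had 11 of 17 members in the table, all lower in Cmg2-KO, and their summed level was 27117 to 39688 scaled counts in Cmg2-KO and 32872 to 52407 in WT. The highest smooth muscle sums of the genotypes were in Cmg2-KO 4 and WT 3. Its correlations with the 4 genes within genotypes were between 0.56 (Bpifb1, p = 0.0914) and 0.68 (Cyp2f4, p = 0.0365), and none passed after adjustment (lowest adjusted p = 0.0835, exact permutation). Alveolar type 2 genes had 3 of 14 members in the table, Sftpb (surfactant protein B), the transcription factor gene Etv5 and the desaturase gene Scd. Sftpb and Etv5 were lower in Cmg2-KO, with log2 fold changes of -0.24 and -0.21, whereas Scd was higher, at 0.70 on the log2 scale. Their sum, most of it Sftpb, was 47174 to 54576 in Cmg2-KO and 49589 to 70174 in WT, and its r with the 4 genes ran from -0.46 (Scgb1a1) to -0.77 (Bpifb1), the reverse sign of the ciliated sum, with no adjusted p under 0.05 (lowest 0.0835, exact permutation). Mesothelial genes had 7 of 10 in the table, all higher, with sums of 4550 to 7839 in Cmg2-KO and 3682 to 6616 in WT and no correlation that passed by Pearson's r. By Spearman's rho, Scgb1a1 passed with the smooth muscle sum (rho = 0.84, p = 0.0121, adjusted p = 0.0483) and, with the opposite sign, the mesothelial sum (rho = -0.75, p = 0.00924, adjusted p = 0.0483, exact permutation). Without the 2 libraries farthest from the median of each sum, Pearson's r ran from -0.02 to 0.56 with the smooth muscle sum, from -0.40 to -0.12 with the alveolar type 2 sum and from -0.44 to -0.16 with the mesothelial sum. Among these 12 coefficients, that of Scgb1a1 with the mesothelial sum had an unadjusted p under 0.05 by exact permutation (r = -0.42, p = 0.0399, without Cmg2-KO 1 and WT 2). No gene of the basal airway (8 genes), neuroendocrine (9), alveolar type 1 (11) or shared epithelial (14) lists was analysed here. The part of these cell types in the lower secretory genes was not tested.

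Among transcription factors of the airway epithelium, 2 of 20 had a row in the table, where 6.63% of all genes had one. Both were higher in Cmg2-KO, as were 3.2% of all genes in the authors' adjustment, and nothing is read from a count so near the background. Nkx2-1, a homeobox factor required for lung epithelial identity and a known activator of Scgb1a1 in rodents, averaged 4032 ± 294 scaled counts in Cmg2-KO and 3456 ± 345 in WT (SD, n = 5 each), a log2 fold change of 0.22 ± 0.08 (SE). Xbp1, a transcription factor of the unfolded protein response, averaged 4329 ± 505 in Cmg2-KO and 3750 ± 363 in WT. Neither passed the adjusted threshold in the authors' deposited table. Txndc5, the other gene of 18 in the protein disulphide isomerase list that had a row beside Agr2, stood opposite to Agr2, with a log2 fold change of 0.14 ± 0.06 (SE). Scgb1a1 was the only analysed gene of 8 secretoglobins and Bpifb1 the only one of 15 BPI fold genes.

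Cyp2f4 belongs with the enzymes that metabolise foreign compounds, and 9 of 26 genes on that list, Cyp2f4 included, had a row in the table, all lower in Cmg2-KO. That is 34.6% of the list, beside 6.63% of all genes with a row and 3.43% with a row and lower. Gstt3, a theta-class glutathione transferase gene, was the 1 gene of the 9 that passed 0.05 after adjustment in the authors' deposited table (adjusted p = 2.45e-05). The median of the authors' log2 fold changes for the 9 was -0.71, against -0.15 over the table. The most abundant were Fmo2, a flavin monooxygenase of lung, at 9308 ± 2021 scaled counts in Cmg2-KO and 13296 ± 5059 in WT, and the sulphotransferase gene Sult1a1, at 3746 ± 299 in Cmg2-KO and 5221 ± 1165 in WT (SD, n = 5 each). Ephx1, the microsomal epoxide hydrolase gene, had a log2 fold change of -0.49 ± 0.15 and Cyp2e1, an ethanol-inducible P450 gene, of -0.59 ± 0.26 (SE).

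The table held 9 P450 genes, 6 lower and 3 higher in Cmg2-KO, where 51.8% of all listed genes were lower. P450 genes without a row were not analysed here, and nothing is read from these counts. The higher ones were Cyp26a1, at 22.6 ± 8.88 scaled counts in Cmg2-KO and 9.56 ± 2.79 in WT, Cyp51, at 1230.3 ± 156 in Cmg2-KO and 1013 ± 143 in WT, and Cyp4f6, at 484 ± 44.0 in Cmg2-KO and 408 ± 57.2 in WT (SD, n = 5 each). The 4 genes of family CYP2, Cyp2a3, Cyp2b2, Cyp2e1 and Cyp2f4, were among the lower ones. Cyp2a3 and Cyp2b2 lie in the same stretch of chromosome 1 as Cyp2f4, at 83653234 to 83766484 and 83103925 to 83119193 in the authors' coordinates, or 167 and 815 kb from it. Apart from Cyp2e1 and Cyp2f4, the P450 genes named here were singled out after their values were seen. Cyp2a3 averaged 117 ± 109 scaled counts in Cmg2-KO and 717 ± 428 in WT (SD, n = 5 each), a log2 fold change of -2.83 ± 0.67 (SE), with Cmg2-KO 4 the highest Cmg2-KO library at 291, above the lowest WT value of 247. Cyp2b2 averaged 137 ± 82.9 in Cmg2-KO and 232 ± 53.9 in WT. Listed genes of the stretch lay in both directions. Itpkc, an inositol trisphosphate kinase gene 71.0 kb from Cyp2f4 and also chosen after its values were seen, averaged 321 ± 16.4 in Cmg2-KO and 282 ± 14.6 in WT. CYP2 genes are related in sequence, so reads may be split between the more alike of them and their levels are uncertain. How alike these 4 genes are was not tested.

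**Figure D3:**
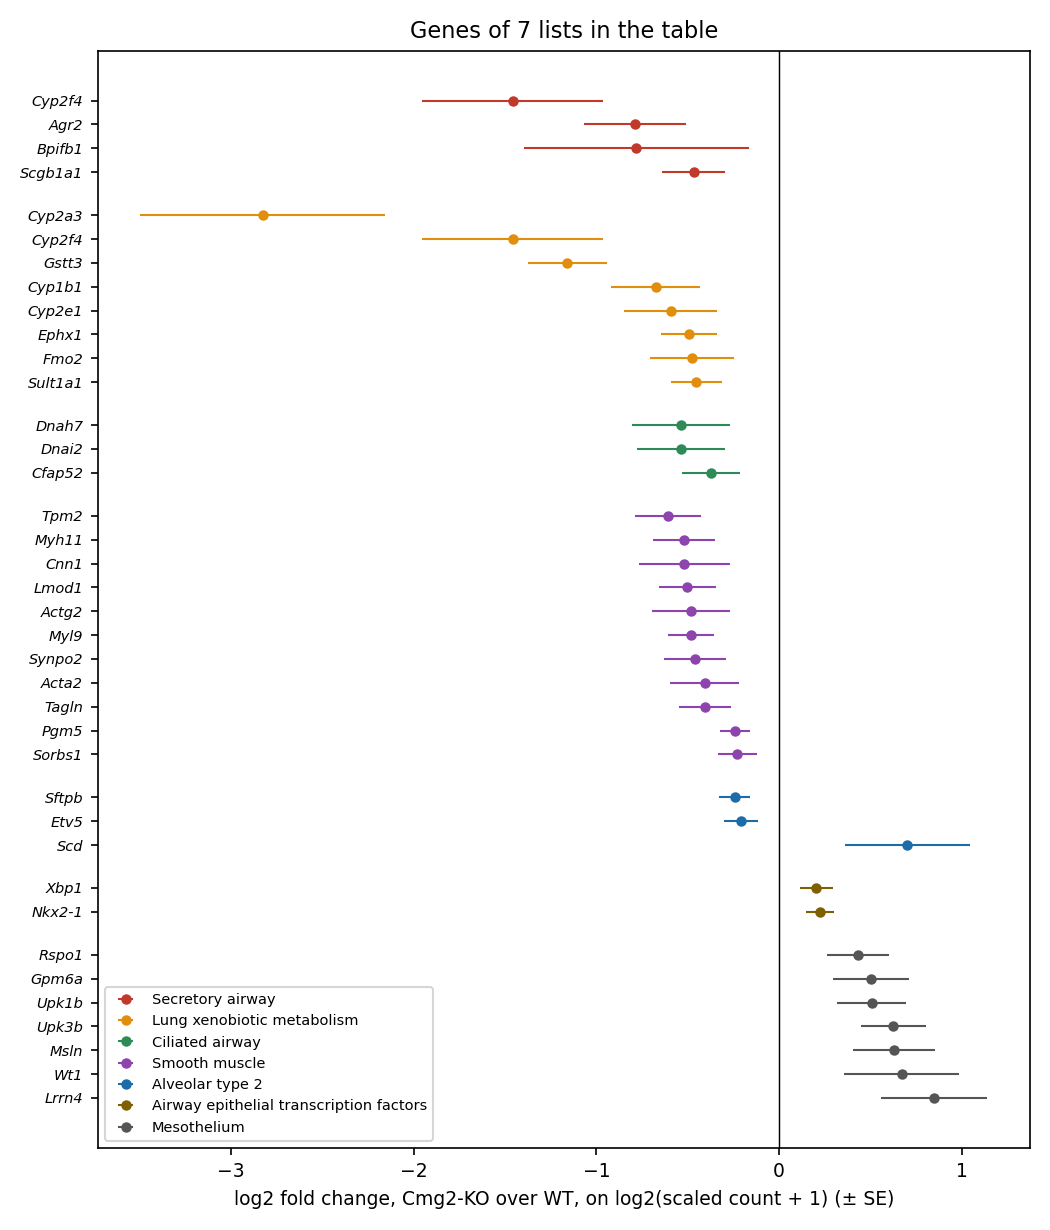
Log2 fold change, Cmg2-KO over WT, ± SE (x axis) for the genes of 7 lists that had a row in the table (y axis), without those not reported here; Cyp2f4 stands in 2 of the lists. Secretory, xenobiotic, ciliated and smooth muscle genes lie left of 0 and mesothelial and transcription factor genes right of it, while alveolar type 2 genes lie on both sides, among genes that were all selected for this contrast.

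The genes most like each secretory gene were sought by Pearson's r of the deviations within genotype over the 10 libraries, among genes of the table with a symbol and a mean of at least 50 scaled counts. For Scgb1a1 these were Ropn1l (r = 0.92), the tetraspanin gene Tspan1 (0.91) and LOC499240 (0.90), out of 901 genes compared. For Cyp2f4 they were Wdr63 (0.94), the F-box gene Fbxo36 (0.94) and Csrp2 (0.93), and for Agr2 Zc2hc1c (0.93), Itprid1 (0.91) and Wdr63 (0.91). For Bpifb1 they included Ribc2 (0.93) and Tram1 (0.93), out of 902. Tram1 was higher in Cmg2-KO, at 4120.3 ± 45.1 scaled counts against 3862 ± 137 in WT (SD, n = 5 each), while the other 9 genes named here were lower, from -0.42 for Zc2hc1c to -0.80 for Itprid1 on the log2 scale. An r above 0.8 was reached by 20 genes with Scgb1a1, 45 with Cyp2f4, 33 with Agr2 and 32 with Bpifb1, and the median r over all genes compared was between 0.05 and 0.10. These coefficients are the highest of many and carry no test.

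Leaving out each library in turn kept all 4 log2 fold changes below 0. The genes were selected for this difference in the same 10 libraries, so the kept sign is no separate support. The log2 fold changes are given for their size. With 1 library left out they ranged from -0.63 to -0.36 for Scgb1a1, from -1.90 to -1.19 for Cyp2f4, from -0.95 to -0.60 for Agr2 and from -1.20 to -0.27 for Bpifb1. For Scgb1a1 the range was set by Cmg2-KO 4 at the low end and Cmg2-KO 2 at the high end. Leaving out both Cmg2-KO 4 and WT 1 was a choice made after seeing the data. Taking out the highest library of each genotype narrows the spread, so the SE is then not read as precision. Without both, the log2 fold changes were -0.55 ± 0.10 for Scgb1a1, -1.70 ± 0.33 for Cyp2f4, -0.76 ± 0.23 for Agr2 and -0.39 ± 0.52 for Bpifb1 (SE). For Bpifb1 the standard error was then larger than the difference.

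**Figure D4:**
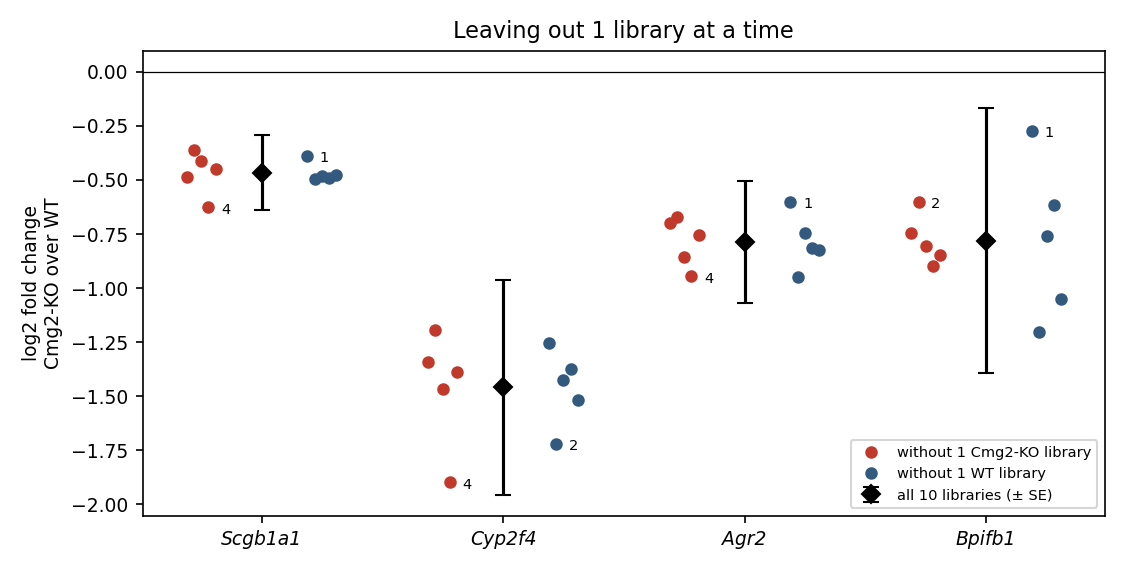
Log2 fold change, Cmg2-KO over WT (y axis), of each gene with all 10 libraries (diamond, ± SE) and without 1 Cmg2-KO library (left points) or 1 WT library (right points); the number marks the library of each genotype whose removal moved the value most. Bpifb1 moves to -0.27 without WT 1 and Cyp2f4 to -1.90 without Cmg2-KO 4.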

How the data were processed

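RNA was extracted from frozen lung with Trizol and made into libraries with the NEBNext Ultra kit, per the labels' protocols, which do not state that strand was kept. The submitters' processing notes name HISAT2 2.0.5, an aligner, and featureCounts 1.5.0-p3, a read counter. Build, annotation and the test that gave the authors' p-values: not given in the sources used here. Values deposited per library are a signal: counts of reads that the authors divided by a factor for each library, as the values show. Within 0.02 reads, 100% of the values of all 10 libraries were whole multiples of 1 read (0.869 to 1.11 scaled counts). WT 4, where 1 read is worth 1.01, met this as well but was left out of the tests on reads. Those tests used 9 libraries, and the values themselves gave no reason for leaving WT 4 out. The deposited table also holds the authors' group means, log2 fold change, fold (ratio) and p-values, and gene lengths; the adjusted p-values imply 19894 genes adjusted. The table holds only genes with p under 0.05 in the authors' test.

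The plan allowed for raw counts; since the table held scaled counts, limma 3.58.1 (trend, robust) in R 4.3.3 was fitted to log2(scaled count + 1) of 1308 genes above 0.5 in at least 5 libraries, with Benjamini-Hochberg adjustment over 19894 genes. Correlations within genotype used all 14400 permutations within genotypes, in Python 3.11.15. Both were tested on simulated data. edgeR 4.0.16, DESeq2 1.42.0 and limma-voom on recovered reads, other scalings, pseudocounts, filters, a replicate block and leaving out libraries were alternatives. Named genes were the 4 genes, list genes of the table (at most 6 of a list, by mean), and the 3 genes with the highest r to each; exceptions are marked, and some genes the rule names are not reported here. The genes, lists and motifs were chosen with earlier results of these data known, and TATTTAC and TATAAA were added after the data were seen, as were the correlations with marker sums and the ratios to the ciliated sum.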

Additional observations from a re-analysis of the deposited data

Results flagged for a closer look

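In groups of 5 libraries, a library was picked out when its gap to the nearest other library divided by the range of the group exceeded 0.71, Dixon's critical value, on the scaled counts. Of the 8 groups formed by the 4 genes and 2 genotypes, 2 were picked out, where chance at 1 in 20 gives about 0.4. WT 1 had 195238 scaled counts of Scgb1a1, against 143906 to 152709 in the other WT libraries, a gap of 0.829 of the range. Cmg2-KO 4 had 859 scaled counts of Cyp2f4, while Cmg2-KO 1, 2, 3 and 5 had 120 to 260, a gap of 0.811 of the range. These are the same libraries that had the highest ciliated sums of their genotypes.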

How the results depend on the processing

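The log2 fold changes of the 4 genes stayed below 0 under all 23 alternatives, for genes that were selected on this contrast. Each moved by less than the SD between libraries, but most alternatives could not have moved them further. Leaving out 1 of 5 libraries cannot shift a difference of means by that SD. Filters, limma's options and a balanced block leave the difference unchanged. Bpifb1 still went from -0.78 to -0.27 without WT 1. On recovered reads of 9 libraries, edgeR gave -1.33 for Bpifb1 and -1.16 for Cyp2f4. From the same reads, limma-voom, which averages log2 values as limma does, gave -0.65 for Bpifb1 and -1.39 for Cyp2f4. The cause of the difference between the methods was not tested. The count of genes called over the table was 1 higher and 2 lower in limma. The higher genes numbered 2 with a pseudocount of 10 or without the trend and robust options, and 3 without both Cmg2-KO 4 and WT 1. On recovered reads, edgeR and limma-voom each called 0 higher and 1 lower (837 and 789 had an unadjusted p under 0.05), and DESeq2 30 higher and 19 lower. Leaving out 1 library gave 0 to 4 higher and 1 to 3 lower.

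With the replicate number as a block, 0 higher and 0 lower genes were called by limma (899 had an unadjusted p under 0.05, against 1035 without the block). The fold changes were the same, which a balanced block fixes in advance. The SE with the block was 0.15 for Scgb1a1, 0.34 for Cyp2f4, 0.26 for Agr2 and 0.51 for Bpifb1. Without it the SE was 0.17, 0.50, 0.28 and 0.61 in the same order. Deviations of same-numbered libraries had correlations from -0.02 to 0.09, and 2 of 5 numbers correlated best with themselves. With so few libraries this cannot decide whether a shared number marks a pair or a batch, and the labels do not say.

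Of the 6 correlations, the 3 with Scgb1a1 missed the threshold by Spearman's rho (0.61 with Cyp2f4, 0.50 with Agr2, 0.39 with Bpifb1). Without both Cmg2-KO 4 and WT 1, a choice made after seeing the data, these and that of Agr2 with Bpifb1 missed it, at 0.34, 0.11, 0.24 and 0.69. Leaving out 1 library gave 0.59 to 0.89, 0.54 to 0.81 and 0.33 to 0.63 for Scgb1a1 with Cyp2f4, Agr2 and Bpifb1, and 0.67 to 0.86 for Agr2 with Bpifb1. The 3 with Scgb1a1 missed the threshold without Cmg2-KO 2, Cmg2-KO 4 or WT 1, and Agr2 with Bpifb1 without WT 1. Scaling over the table by other factors shifted all log2 fold changes by at most -0.05. The low reads of Bpifb1 limit its precision.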

Other observations

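Lpo, which encodes lactoperoxidase, an antimicrobial enzyme of airway glands, was the 1 analysed gene of 11 on a cartilage and submucosal gland list and stood opposite to the secretory genes. It was listed at 2.84 to 11.3 scaled counts in Cmg2-KO and 0 to 3.11 in WT, levels of a few reads.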
